A study of Mus musculus with 12 samples.

Results

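The difference between Tnnt2low and Tnnt2high cardiomyocytes was taken within each pair of libraries and then compared between Glut1 transgenic and WT hearts of 1-day-old CD1 mice. This difference of differences is called the interaction here. It is given in log2 units as fitted by edgeR to the counts of 4 Glut1 transgenic and 2 WT pairs. A positive value means that Tnnt2low cells exceeded Tnnt2high cells by more in Glut1 transgenic hearts. Differences of single pairs are on log2 normalized counts, and their means need not give the fitted value exactly. All 12 libraries of the series took part, and 11771 autosomal genes with enough counts were tested, of 22923 autosomal genes and 24421 genes in all. The Glut1 transgenic group carried the alleles given in the labels as aMHC-hGLUT1tg, aMHC-Cre tg and R26+/YFP reporter: human GLUT1 under the αMHC promoter, Cre under the same promoter, and a reporter that makes YFP where Cre has acted. The labels call the other group wild type, and by the study's methods these hearts carried αMHC-Cre and the reporter as well, without the GLUT1 transgene. The αMHC promoter is active in cardiomyocytes, which confines both the transgene and the mark to these cells and says nothing of GLUT1 in other cells of the heart. The labels name the populations by MitoTracker signal, a dye taken up by mitochondria, and the libraries labelled high in that signal are those called Tnnt2low. Libraries of a Glut1 transgenic pair share a heart number in the labels (3, 4, 5 and 8 for the hearts numbered 1 to 4 here). Both WT pairs carry heart number 9 followed by a further number, so the labels do not show whether the 2 WT pairs came from different hearts, and p-values measure the spread between these samples.

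Cardiac troponin T, the product of Tnnt2, anchors the troponin complex on the thin filament and is a mark of the contractile state of cardiomyocytes. Around birth, mouse cardiomyocytes still divide, then leave the cell cycle while they build sarcomeres and mitochondria and turn from glucose to fatty acids as fuel. GLUT1, encoded by Slc2a1, carries glucose across the plasma membrane independently of insulin and is more abundant in fetal than in adult heart. A mitotic cell makes cyclin B, spindle motors and kinetochore proteins that pull chromosomes apart, followed by a contractile ring that divides the cytoplasm.

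Before any comparison, the 2 libraries of WT pair 2 stood apart because they were nearly alike. The median chi-square per gene between them was 2.75 times the value given by counting noise alone, the smallest of the 66 combinations of 2 libraries. Within the Glut1 transgenic pairs it was 11.4 to 15.8, and within WT pair 1 it was 13.0. The libraries of WT pair 2 have separate labels and were kept as 2 samples. A value above counting noise does not show that they held different populations. Whether the sort separated them was not tested. Reads outside exons per read in a gene numbered 1.07, 0.956, 0.886 and 0.940 in the Tnnt2low libraries of Glut1 transgenic hearts 1 to 4 and 2.32, 2.63, 2.32 and 2.26 in their Tnnt2high libraries. The values were 1.13 and 1.83 in WT pair 1, against 1.5 and 1.51 in WT pair 2. All 4 Glut1 transgenic differences in this ratio lay below both WT differences (mean -1.42 ± 0.19 (SD, n = 4) against -0.36 ± 0.49 (SD, n = 2)). By an exact permutation test, two-sided, p was 0.0667, which is the least that 4 pairs against 2 can give, so no single value can pass 0.05 here. Depth ran from 4065306 to 9815069 reads in genes per library and was higher in the Tnnt2low library of every pair except WT pair 2. Y-linked genes held 673 to 1426 reads in the libraries of Glut1 transgenic pairs 2 and 4, and at most 5 in any other, so the WT pairs hold no library with such reads. List medians of the interaction are therefore given with and without WT pair 2. Of the 89 genes named by rule, the interaction of 7 changed sign without it and that of another 25 moved by more than 1.5 times. The part played by depth, reads outside exons and sex was not tested.

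**Figure D1:**
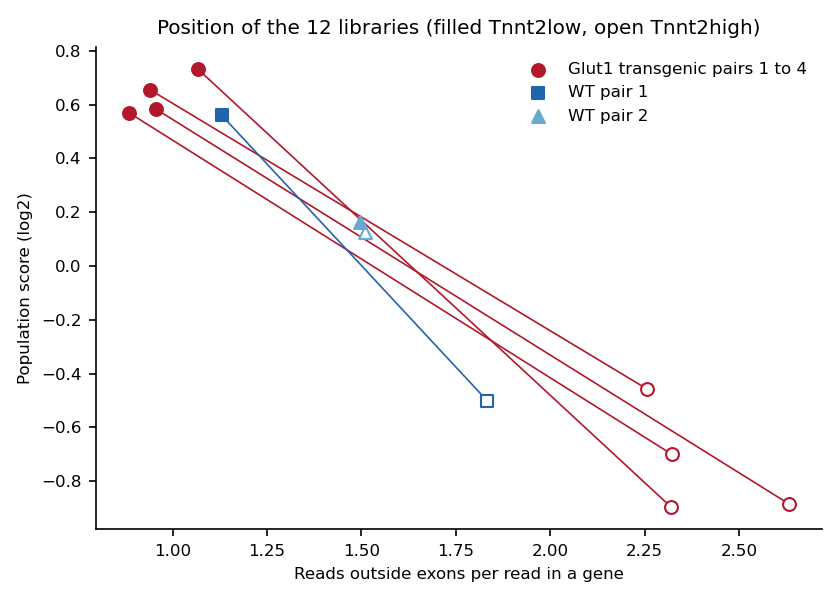
Each point is a library, filled for Tnnt2low and open for Tnnt2high, and a line joins the libraries of a pair, with red circles for Glut1 transgenic, dark blue squares for WT pair 1 and light blue triangles for WT pair 2. The x axis gives reads outside exons per read in a gene, and the y axis gives a population score, the median centred log2 level of the genes higher in Tnnt2low cells of Glut1 transgenic hearts minus that of the genes lower there. The score chose its genes on the Glut1 transgenic libraries, so it describes the WT libraries only, and WT pair 2 sat at 0.16 and 0.13, between the populations.

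Markers of cardiomyocytes were abundant in every library, as its label calls for, and the 10 listed ones summed to 124109 to 156982 CPM (counts scaled to library size) in the Tnnt2low libraries of Glut1 transgenic hearts and to 144787 to 156964 CPM in those of WT hearts. In the Tnnt2high libraries these sums were 134452 to 140393 and 147008 to 151039 CPM. No marker of red blood cells had enough counts to be tested. Markers of 2 other cell types moved with the populations. The 22 fibroblast and matrix markers summed to 1029.6 to 2264 CPM in Tnnt2high and 635 to 709.5 CPM in Tnnt2low libraries of Glut1 transgenic hearts, and to 797 to 1715 and 748 to 960.3 CPM in WT hearts. The 16 endothelial markers summed to 45.2 to 348 CPM in Tnnt2high and 13.2 to 102 CPM in Tnnt2low libraries of Glut1 transgenic hearts. In WT pair 1 the endothelial sums were 433 and 129 CPM, against 19.6 and 17.3 CPM in WT pair 2. In bulk RNA, fewer cells of a type and less RNA per cell cannot be told apart.

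No autosomal gene passed the test of the interaction, in either direction (0 called higher, 0%, and 0 called lower, 0%, of 11771). The test was edgeR's quasi-likelihood test with the pair as a block, a gene counted as called at a Benjamini-Hochberg adjusted p under 0.05 over all genes tested, and the smallest adjusted p was 0.317. At an unadjusted p under 0.05, 327 genes (2.78%) had a positive and 261 (2.22%) a negative interaction. DESeq2 called 2 genes higher and 5 lower, and limma on the pair differences called 0 in each direction, with 347 and 283 at an unadjusted p under 0.05. The count depended on the filter for low counts. Without it, edgeR called 29 genes higher and 48 lower of 16133, every one of which had also passed the filter, and that fit estimated infinite prior degrees of freedom, so that every gene was given the spread of the trend in place of its own. In the fit reported here the prior degrees of freedom were 8.67 beside 4 residual ones, so each gene's own spread counted. The interaction of the 89 genes named by rule had adjusted p-values between 0.317 and 0.996, above 0.9 for 77 of them, and intervals given from here on are 95% intervals of single genes without adjustment.

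The design left wide intervals. The median standard error of the interaction was 0.41 on the log2 scale, against 0.24 for the population difference in Glut1 transgenic and 0.33 for that in WT hearts. The 95% interval of the interaction lay within 1 log2 unit of 0 for 4069 genes (34.6%), so larger interactions lay outside the interval of these genes, while the remaining genes had intervals that reached past 1 log2 unit. The median standard deviation (SD) of pair differences was 0.44 over the 4 Glut1 transgenic and 0.36 over the 2 WT pairs. All 4 Glut1 transgenic pair differences lay above both WT ones in 919 genes (7.81%) and below both in 783 (6.65%). If genotype played no part, each direction would be 1 of the 15 arrangements of 4 pairs against 2, a share of 0.0667. Both shares were near that, so these counts alone show no effect of genotype. Against WT pair 1 alone, 2313 genes (19.6%) lay above and 2129 (18.1%) below, where arrangement alone also gives a higher share.

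The population difference behind the interaction was called far more often in Glut1 transgenic hearts. In Glut1 transgenic hearts 1170 genes (9.94%) rose and 1096 (9.31%) fell in Tnnt2low cells, while in WT hearts 1 gene (0.0085%) rose and 1 (0.0085%) fell. The WT call that rose was Hist1h2bj, a replication-dependent histone gene, and the one that fell was Rpl35, a protein of the large ribosomal subunit, named after its values were seen. With an offset for transcript length and GC content the Glut1 transgenic counts were 272 and 358, and without Glut1 transgenic pair 1 they were 373 and 435. Genes called in one genotype and not in the other are not thereby shown to differ between them, and the interaction is that test. Over the 1170 genes that rose in Glut1 transgenic hearts, the median difference was 0.80, 0.73, 0.59 and 0.55 in pairs 1 to 4, 0.48 in WT pair 1 and 0.02 in WT pair 2. Over the 1096 genes that fell, it was -0.91, -0.79, -0.72 and -0.61 in the Glut1 transgenic pairs, -0.66 in WT pair 1 and -0.0033 in WT pair 2. WT pair 1 shared the sign of the Glut1 transgenic change in 93.3% of the first and 93.1% of the second set, and WT pair 2 in 54.4% and 51.2%. These genes were chosen on the Glut1 transgenic libraries, which favours large values there, so the smaller WT medians are a description. Over the 7691 genes whose mean level reached 10 CPM, Spearman's rank correlation of the pair differences was 0.394 to 0.764 between Glut1 transgenic pairs, 0.453 to 0.657 between them and WT pair 1, and 0.0111 to 0.0280 between them and WT pair 2. These pairs share no library with each other, and genes are not independent replicates.

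Read list by list, the medians of WT pair 1 lay within the range of the 4 Glut1 transgenic medians for 26 of the 36 gene lists with at least 5 members tested, and those of WT pair 2 for 11. The largest median of WT pair 2 over these lists was 0.144 in absolute log2 value. No member of any list passed the test of the interaction. Over all 11771 genes the median interaction was 0.02.

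**Figure D2:**
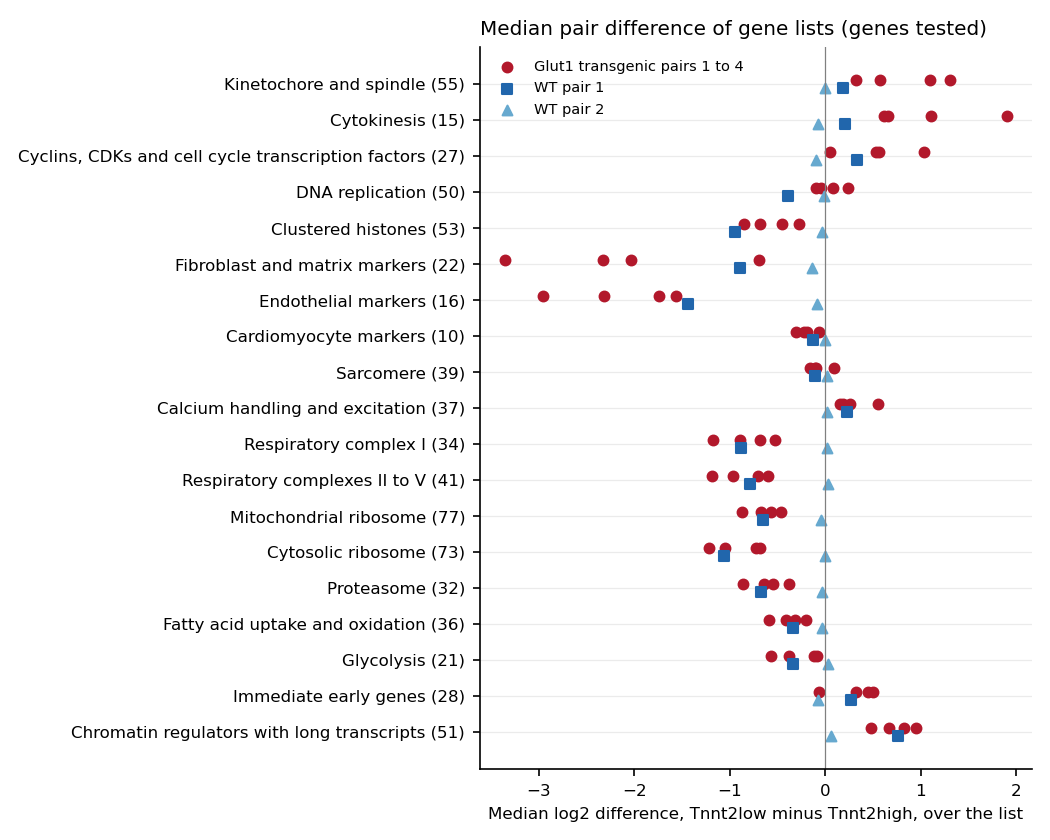
Median log2 difference, Tnnt2low minus Tnnt2high, over the tested members of gene lists (number in brackets), with 1 symbol for each pair. WT pair 2 stood near 0 throughout, while WT pair 1 fell among the Glut1 transgenic pairs for mitochondrial and ribosomal genes and short of them for cytokinesis genes (0.21 against 0.61 in the lowest Glut1 transgenic pair).

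Genes of mitosis were the group with the largest positive interaction among the cell cycle lists. The median interaction was 0.83 over 55 genes of the kinetochore and spindle and 0.93 over 15 genes of cytokinesis. In the first list 18 genes had a positive and 1 a negative interaction at an unadjusted p under 0.05, and in the second 7 and 0, against 2.78% and 2.22% of all genes tested. All 4 Glut1 transgenic pair differences lay above both WT ones in 18 of the 55 kinetochore and spindle genes and in 4 of the 15 cytokinesis genes, against 7.81% of all genes. They lay below both in 1 and 2, against 6.65%. Against WT pair 1 alone, 23 genes lay above and 5 below in the first list, and 4 and 2 in the second, where 19.6% and 18.1% of all genes did. The kinetochore and spindle median was 1.10, 1.31, 0.57 and 0.32 in Glut1 transgenic pairs 1 to 4, 0.19 in WT pair 1 and -0.0022 in WT pair 2, so the lowest Glut1 transgenic pair and WT pair 1 were close. The cytokinesis median was 1.11, 1.90, 0.61 and 0.66 against 0.21 and -0.08. Without WT pair 2 the median interactions were 0.67 and 0.63, and with an offset for transcript length and GC content 0.86 and 0.94. In Glut1 transgenic hearts alone, 28 kinetochore and spindle genes and 10 cytokinesis genes rose, with 9.94% of all genes doing so. None of either list passed the test in WT hearts, where only 0.0085% of all genes rose and 0.0085% fell.

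The promoters of 4 such genes are shown because these genes had a positive difference in every Glut1 transgenic pair, and because many mitotic promoters carry CCAAT boxes, the site of the NF-Y factor. Each line gives the 100 bases before the first start listed by RefSeq (GRCm38.p6), 5′ to 3′ on the gene's strand, with the letters CCAAT, or ATTGG on the other strand, in capitals.
Kifc1 (chr17:33890634-33890733, minus strand): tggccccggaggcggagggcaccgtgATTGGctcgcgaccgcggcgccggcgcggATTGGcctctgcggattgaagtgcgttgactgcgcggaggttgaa
Ect2 (chr3:27153879-27153978, minus strand): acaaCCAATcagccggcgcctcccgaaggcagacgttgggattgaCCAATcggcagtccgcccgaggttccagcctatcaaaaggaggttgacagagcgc
Cenpe (chr3:135212463-135212562, plus strand): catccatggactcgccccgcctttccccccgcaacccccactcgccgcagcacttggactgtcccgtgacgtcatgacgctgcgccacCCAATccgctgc
Ccnb2 (chr9:70421555-70421654, minus strand): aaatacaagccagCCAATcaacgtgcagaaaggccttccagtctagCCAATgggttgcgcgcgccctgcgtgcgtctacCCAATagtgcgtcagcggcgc
Kifc1 and Ect2 held 2 such matches each, Cenpe 1 and Ccnb2 3. The Cenpe window, set by the RefSeq start, reaches past the start of the gene in the coordinates given below. Its 1 match lies beyond that start, inside the gene by those coordinates. At least 1 match stood in 18.9% of all 32851 promoter windows of this length in the table, and at least 2 in 3.57%. Of the kinetochore, spindle and cytokinesis genes tested, 57 of 70 matched the table by symbol, and 36 of their 64 windows (56.2%) held a match. A match describes the letters and is not a binding site.

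Ect2 encodes the exchange factor that activates RhoA at the cleavage furrow. Ect2 stood at 32.1, 42.3, 19.0 and 16.1 CPM in the Tnnt2low and at 13.9, 7.39, 7.19 and 7.59 CPM in the Tnnt2high libraries of Glut1 transgenic hearts 1 to 4. Its levels in WT pairs 1 and 2 were 14.9 and 26.0 CPM in Tnnt2low and 15.5 and 27.4 CPM in Tnnt2high cells. Every Glut1 transgenic heart thus had more Ect2 RNA in Tnnt2low cells, by 1.19, 2.47, 1.37 and 1.06 log2 units, and neither WT pair did (-0.06 and -0.08). The interaction was 1.61 (SE 0.42, 95% interval 0.69 to 2.52, adjusted p = 0.911), and 1.60 without WT pair 2. Ect2 lies on chromosome 3 from 27097222 to 27153878 (mm10).

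Cenpe is a kinesin that moves chromosomes along spindle fibres at the kinetochore. Cenpe stood at 72.7, 69.1, 32.0 and 37.6 CPM in the Tnnt2low and at 22.4, 16.7, 18.6 and 15.6 CPM in the Tnnt2high libraries of Glut1 transgenic hearts 1 to 4. The WT values of pairs 1 and 2 were 28.9 and 39.9 CPM in Tnnt2low and 23.8 and 38.7 CPM in Tnnt2high cells. WT pair 1 lay in the direction of the Glut1 transgenic hearts at 0.27 log2 units, below the lowest of them (0.77), and the libraries of WT pair 2 were alike at the level of Tnnt2low cells of Glut1 transgenic hearts 3 and 4. The interaction was 1.30 (SE 0.35, 95% interval 0.54 to 2.05, adjusted p = 0.911), and 1.18 without WT pair 2. Ccnb2, a B-type cyclin that activates Cdk1 at mitosis, showed the same order. Ccnb2 stood at 47.8, 50.9, 25.9 and 12.4 CPM in the Tnnt2low and at 20.4, 17.0, 8.42 and 5.69 CPM in the Tnnt2high libraries of Glut1 transgenic hearts 1 to 4. WT pairs 1 and 2 had 24.0 and 36.5 CPM in Tnnt2low and 17.9 and 35.4 CPM in Tnnt2high cells. Its interaction was 1.17 (SE 0.32, 95% interval 0.48 to 1.86, adjusted p = 0.911), and 0.98 without WT pair 2. Cenpe lies on chromosome 3 from 135212537 to 135273611 and Ccnb2 on chromosome 9 from 70407692 to 70421547.

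Mki67, a nuclear protein made by cycling cells and widely used to mark them, had the most reads of these genes. Mki67 stood at 616, 689, 310.3 and 238 CPM in the Tnnt2low and at 118, 95.2, 164 and 105 CPM in the Tnnt2high libraries of Glut1 transgenic hearts 1 to 4. In WT pairs 1 and 2 it stood at 266 and 428 CPM in Tnnt2low and at 154 and 408 CPM in Tnnt2high cells. The Tnnt2high library of WT pair 2 was above every Tnnt2high library of Glut1 transgenic hearts and above 2 of their Tnnt2low libraries. The pair differences were 2.38, 2.85, 0.92 and 1.18 in Glut1 transgenic and 0.79 and 0.07 in WT pairs, without overlap, and the interaction was 1.41 (SE 0.46, 95% interval 0.42 to 2.39, adjusted p = 0.911). Without WT pair 2 it was 1.04. Top2a, the topoisomerase that untangles replicated chromosomes, overlapped between genotypes, with pair differences of 1.39, 2.17, 0.54 and 0.15 against 0.31 and -0.03 and an interaction of 0.92 (SE 0.43, 95% interval -0.01 to 1.86, adjusted p = 0.911). Cdk1, the kinase that drives entry into mitosis, had differences of 0.39, 1.28, -0.05 and -0.48 against -0.05 and -0.11, of both signs in Glut1 transgenic hearts and below 0 in WT, with an interaction of 0.36 (95% interval -0.52 to 1.25). Ccnb1, the other B-type cyclin, had differences of 0.08, 2.73, 2.08 and 1.53 against -0.19 and 2.07 and an interaction of 0.57 (95% interval -1.20 to 2.35, 1.83 without WT pair 2), and 47.1% of its 30-base words occurred in transcripts of other genes.

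Kifc1, a motor that focuses spindle poles, had the smallest p among genes with a positive interaction. Kifc1 stood at 22.1, 20.7, 30.9 and 21.3 CPM in the Tnnt2low and at 8.87, 6.57, 9.17 and 3.32 CPM in the Tnnt2high libraries of Glut1 transgenic hearts 1 to 4. Its levels in WT pairs 1 and 2 were 9.37 and 15.2 CPM in Tnnt2low and 17.3 and 18.4 CPM in Tnnt2high cells. The populations thus differed in opposite directions, with pair differences of 1.29, 1.61, 1.72 and 2.58 in Glut1 transgenic and -0.86 and -0.27 in WT hearts. The interaction was 2.38 (SE 0.44, 95% interval 1.41 to 3.34, adjusted p = 0.444), 2.70 without WT pair 2, and DESeq2 called it (adjusted p = 0.017). 66.1% of its 30-base words occurred in transcripts of other genes, so its reads are uncertain. Iqgap3, a scaffold protein of the cell cortex, had an interaction of 1.35 (95% interval 0.49 to 2.21), and 0.93 without WT pair 2. Pttg1, which encodes securin, was the one kinetochore and spindle gene below 0 at an unadjusted p under 0.05. Its interaction was -0.86 (95% interval -1.68 to -0.04, -0.44 without WT pair 2).

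**Figure D3:**
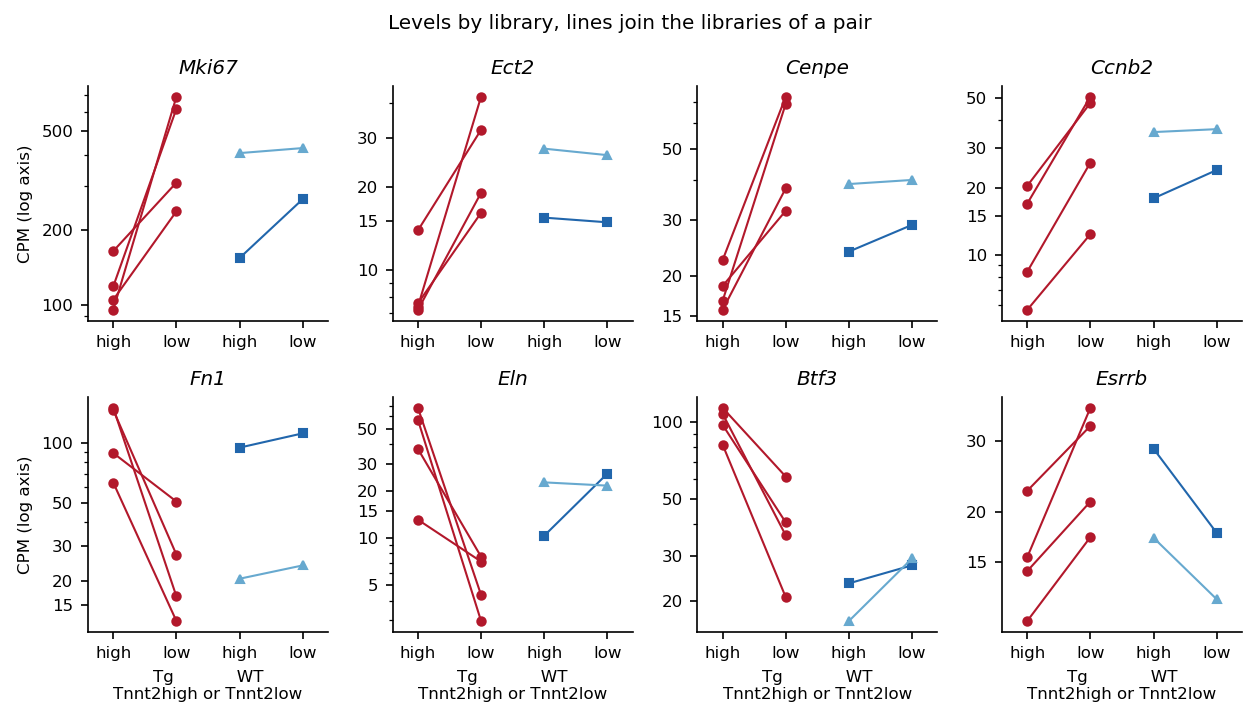
Level of named genes in each of the 12 libraries, in TMM-normalized CPM on a log axis, with lines joining the Tnnt2high and Tnnt2low library of a pair (red circles Glut1 transgenic, dark blue squares WT pair 1, light blue triangles WT pair 2). Red lines rise for the mitotic genes of the top row and fall for Fn1, Eln and Btf3, and the WT lines are flatter or run the other way, as for Esrrb (-0.69 and -0.50 in WT pairs 1 and 2).

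The other cell cycle lists had smaller interactions. Cyclins, CDKs and their transcription factors had a median of 0.36 over 27 genes. At an unadjusted p under 0.05, 5 were positive and 0 negative, against 2.78% and 2.22% of all genes tested. WT pair 1 (0.34) lay within the range of the Glut1 transgenic pairs (0.53, 1.03, 0.05 and 0.56), and the median was 0.18 without WT pair 2. E2f8, a repressor of E2F target genes, followed Ccnb2 in the order of p in this list, with an interaction of 1.05 (95% interval 0.19 to 1.91). DNA replication genes had a median of 0.22 over 50 genes, and here WT pair 1 (-0.39) lay below every Glut1 transgenic pair (-0.04, 0.24, -0.09 and 0.08) while WT pair 2 (-0.01) lay among them. Without WT pair 2 this median was 0.43. Clspn, an adaptor of the replication checkpoint, had pair differences of 1.10, 1.24, 0.39 and 1.08 against -0.24 and -0.01 and an interaction of 1.09 (95% interval 0.30 to 1.89). Rrm2 and Rrm1, the subunits of ribonucleotide reductase, had interactions of 0.78 (95% interval 0.18 to 1.38) and 0.72 (95% interval 0.14 to 1.29). Of the CDK inhibitors and Rb family, 11 genes had a median of 0.28 (0.05 without WT pair 2), and Cdkn2c, an inhibitor of Cdk4 and Cdk6, had 0.39, 1.28, 0.88 and 1.12 in Glut1 transgenic pairs against -0.22 and -0.13 in WT pairs, with an interaction of 1.10 (SE 0.33, 95% interval 0.39 to 1.81, adjusted p = 0.911). Its level in the Tnnt2low libraries was 33.0, 44.4, 28.9 and 30.3 CPM in Glut1 transgenic and 26.6 and 31.4 CPM in WT hearts.

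Genes of fibroblasts and extracellular matrix had the largest negative interaction of the lists with at least 5 members tested. Their median was -1.47 over 22 genes, with 8 negative and 0 positive at an unadjusted p under 0.05. Over all genes tested these shares were 2.22% and 2.78%. All 4 Glut1 transgenic pair differences lay below both WT ones in 4 of the 22 genes and above both in 0. This held for 6.65% and 7.81% of all genes. Against WT pair 1 alone, 8 lay below and 2 above, where 18.1% and 19.6% of all genes did. The list median was -3.36, -2.04, -2.33 and -0.70 in Glut1 transgenic pairs 1 to 4, -0.90 in WT pair 1 and -0.14 in WT pair 2, so WT pair 1 lay inside the Glut1 transgenic range. The median interaction was -1.02 without WT pair 2.

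Fn1, the matrix glycoprotein fibronectin, fell in Tnnt2low cells of every Glut1 transgenic heart. Fn1 stood at 16.6, 12.4, 27.1 and 50.6 CPM in the Tnnt2low and at 152, 63.2, 148 and 89.4 CPM in the Tnnt2high libraries of Glut1 transgenic hearts 1 to 4. The WT values of pairs 1 and 2 were 113 and 23.9 CPM in Tnnt2low and 95.3 and 20.4 CPM in Tnnt2high cells. Both WT pairs were slightly higher in Tnnt2low cells (0.24 and 0.22 log2 units), against -3.17, -2.32, -2.44 and -0.82 in the Glut1 transgenic pairs. The interaction was -2.44 (SE 0.49, 95% interval -3.50 to -1.38, adjusted p = 0.487), and -2.44 without WT pair 2. Eln, which encodes elastin of elastic fibres, had a larger interaction with a wider interval. Eln stood at 2.96, 7.63, 7.10 and 4.35 CPM in the Tnnt2low and at 57.1, 37.2, 13.1 and 68.0 CPM in the Tnnt2high libraries of Glut1 transgenic hearts 1 to 4. WT pairs 1 and 2 had 25.9 and 21.7 CPM in Tnnt2low and 10.4 and 22.7 CPM in Tnnt2high cells. Its interaction was -3.46 (SE 0.77, 95% interval -5.14 to -1.78, adjusted p = 0.816), and -4.18 without WT pair 2. Fn1 lies on chromosome 1 from 71585520 to 71653200 and Eln on chromosome 5 from 134702593 to 134747323. Fn1 passed the test when Glut1 transgenic pair 4, the pair with its smallest difference, was left out (-2.90, edgeR adjusted p = 0.0115). Leaving out that pair favours a call by itself. Fn1 also passed in the pairs without Y-linked reads (-3.05, edgeR adjusted p = 0.0133), a set that lacks pair 4 as well, so these fits are not independent. No other fit with 1 pair left out called it.

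Endothelial markers had a median interaction of -1.19 over 16 genes, with 4 negative and 0 positive at an unadjusted p under 0.05. Over all genes tested these shares were 2.22% and 2.78%. All 4 Glut1 transgenic pair differences lay below both WT ones in 6 of the 16 genes and above both in 0. This held for 6.65% and 7.81% of all genes. Against WT pair 1 alone, 6 lay below and 2 above, where 18.1% and 19.6% of all genes did. The list median was -1.56, -2.96, -2.32 and -1.75 in Glut1 transgenic pairs, -1.44 in WT pair 1 and -0.08 in WT pair 2. WT pair 1 was thus close to the weakest Glut1 transgenic pair, and the median interaction was -1.01 without WT pair 2. Eng, the endothelial co-receptor endoglin, stood at 1.05, 2.02, 6.85 and 9.84 CPM in Tnnt2low and 7.06, 11.8, 43.4 and 26.8 CPM in Tnnt2high cells of Glut1 transgenic hearts. In WT pairs 1 and 2 it stood at 16.7 and 1.34 CPM in Tnnt2low and at 34.8 and 2.02 CPM in Tnnt2high cells. Its interaction was -1.39 (95% interval -2.50 to -0.28), and -1.22 without WT pair 2. Vwf, von Willebrand factor, reached 30.6 CPM in its highest library and stood at 0 in 1 library of each genotype, and had an interaction of -3.14 (95% interval -5.33 to -0.94). Pdgfra, a growth factor receptor of fibroblasts, had an interaction of -2.58 (95% interval -4.83 to -0.33). Smooth muscle and pericyte markers had a median of 0.13 over 11 genes, leukocyte markers -0.54 over 4, epicardial markers -0.44 over 4, and Dbh, an enzyme of noradrenaline synthesis and the 1 tested gene of the Schwann and neuron markers, had an interaction of -1.01. These values without WT pair 2 were 0.25, -0.52, -0.31 and -0.14. Whether cells other than cardiomyocytes gave the values of these lists was not tested.

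For the respiratory chain, which turns the energy of electron transfer into ATP, the interaction rested on WT pair 2. Complex I had a median interaction of -0.38 over 34 nuclear genes and complexes II to V of -0.42 over 41. At an unadjusted p under 0.05, 10 and 7 genes were negative and 1 and 0 positive. Over all genes tested, 2.22% were negative and 2.78% positive. Pair differences lay below both WT ones in 7 and 4 genes and above both in 0 and 0, against 6.65% and 7.81%. Against WT pair 1 alone, 8 and 4 lay below and 3 and 2 above, where 18.1% and 19.6% of all genes did. The complex I median was -1.18, -0.89, -0.68 and -0.53 in Glut1 transgenic pairs 1 to 4 and -0.88 in WT pair 1, in the middle of them, but 0.01 in WT pair 2. For complexes II to V these values were -1.19, -0.97, -0.71 and -0.60, -0.79 and 0.02. Without WT pair 2 the median interactions were 0.05 and -0.07, and with the offset for transcript length and GC content -0.20 and -0.17. Ndufa11, an accessory subunit of complex I, had the smallest p of the list among negative values. Its level was 159, 172, 199 and 207 CPM in Tnnt2low and 385, 454, 397 and 365 CPM in Tnnt2high cells of Glut1 transgenic hearts. Its levels in WT pairs 1 and 2 were 241 and 228 CPM in Tnnt2low and 324 and 239 CPM in Tnnt2high cells. WT pair 1 (-0.43) lay outside the Glut1 transgenic range (-1.28, -1.40, -0.99 and -0.81), and the interaction was -0.88 (SE 0.22, 95% interval -1.36 to -0.39, adjusted p = 0.911), and -0.69 without WT pair 2. Cox5a of cytochrome c oxidase had an interaction of -0.72 (95% interval -1.20 to -0.23), and -0.38 without WT pair 2. For Ndufa4, a small subunit first assigned to complex I, it was -0.75 (95% interval -1.25 to -0.24), and -0.52 without WT pair 2.

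Other lists with short transcripts followed the same order. Cytosolic ribosomal proteins had a median interaction of -0.44 over 73 genes, the mitochondrial ribosome -0.29 over 77 and the proteasome -0.27 over 32. WT pair 1 lay at -1.06, -0.66 and -0.68 for these lists, within the Glut1 transgenic ranges, and WT pair 2 at -0.01, -0.04 and -0.03. Without WT pair 2 the medians were 0.04, -0.03 and -0.01. Mrpl42 and Mrpl15 of the mitochondrial large subunit had interactions of -0.78 (95% interval -1.24 to -0.33) and -0.61 (95% interval -1.08 to -0.15), and -0.59 and -0.57 without WT pair 2. Psma4 and Psmb1 of the proteasome core had interactions of -0.64 and -0.59, and -0.81 and -0.11 without WT pair 2. The list of chromatin regulators with long transcripts mirrored this with the opposite sign. Its median interaction was 0.35 over 51 genes and 0.01 without WT pair 2, and WT pair 1 (0.76) stood among the Glut1 transgenic pairs (0.95, 0.82, 0.48 and 0.67). Tnrc6c had the smallest p of the list, though its role, as a partner of Argonaute in silencing by small RNAs, is not that of a chromatin regulator. Tnrc6c stood at 85.0, 76.6, 73.8 and 87.7 CPM in Tnnt2low and 38.1, 30.1, 21.8 and 45.0 CPM in Tnnt2high cells of Glut1 transgenic hearts. The WT values of pairs 1 and 2 were 80.5 and 71.6 CPM in Tnnt2low and 65.9 and 77.9 CPM in Tnnt2high cells. Its interaction was 1.22 (SE 0.27, 95% interval 0.62 to 1.81, adjusted p = 0.816), and 1.01 without WT pair 2. Bahcc1 of the same list had an interaction of 0.92 (95% interval 0.33 to 1.5), and 0.73 without WT pair 2.

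Transcript length moved with the interaction over all genes. With the 11771 genes ordered from the shortest to the longest transcripts and divided into 5 equal groups, the median interaction was -0.27, -0.09, 0.04, 0.12 and 0.22. The group of shortest transcripts had a median difference of -0.61, -0.56, -0.41 and -0.39 in Glut1 transgenic pairs, -0.48 in WT pair 1 and 0 in WT pair 2. That of longest transcripts had 0.53, 0.47, 0.33 and 0.33, 0.37 and 0.02. WT pair 1 therefore followed the Glut1 transgenic pairs across lengths, and WT pair 2 was flat. Spearman's rank correlation between transcript length and the pair difference was 0.279 to 0.495 in Glut1 transgenic pairs, 0.372 in WT pair 1 and 0.0308 in WT pair 2, across genes that share a library, depth and base composition.

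**Figure D4:**
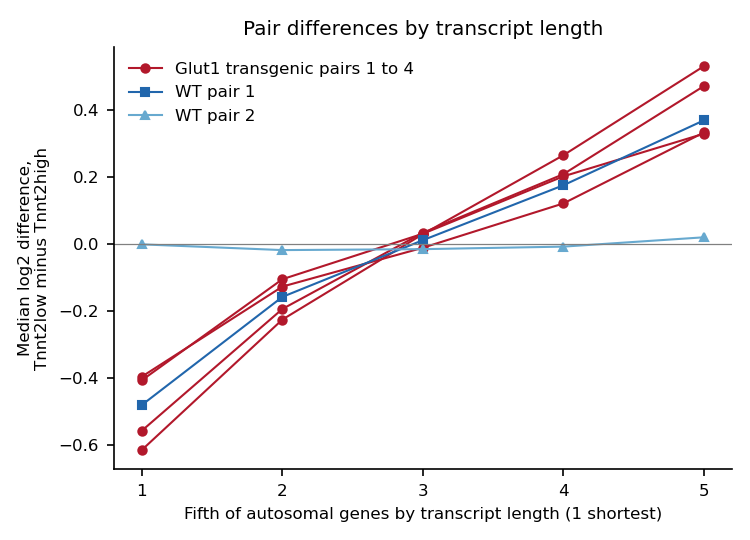
Median log2 difference, Tnnt2low minus Tnnt2high, over 5 equal groups of the tested autosomal genes ordered by transcript length, with 1 line for each pair (red Glut1 transgenic, dark blue WT pair 1, light blue WT pair 2). The line of WT pair 1 runs among the red lines, from -0.48 to 0.37, and that of WT pair 2 stays near 0.

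Sarcomere genes as a list showed little interaction. Their median was -0.03 over 39 genes, and 0.06 without WT pair 2. At an unadjusted p under 0.05, 0 were positive and 2 negative, against 2.78% and 2.22% of all genes tested. Tnnt2 itself, the gene that names the populations, was one of the 2 negative ones. Tnnt2 stood at 13893, 13129, 12650.1 and 13964 CPM in the Tnnt2low and at 18712, 20813, 16073 and 16164 CPM in the Tnnt2high libraries of Glut1 transgenic hearts 1 to 4. WT pairs 1 and 2 had 15728 and 16717 CPM in Tnnt2low and 16241 and 17187 CPM in Tnnt2high cells. Tnnt2 was lower in the Tnnt2low library of all 6 pairs, with differences of -0.43, -0.66, -0.35 and -0.21 log2 units in Glut1 transgenic and -0.05 and -0.04 in WT hearts, and the groups of pairs did not overlap. The interaction was -0.37 (SE 0.17, 95% interval -0.73 to -0.01, adjusted p = 0.911), and -0.36 without WT pair 2, so for Tnnt2 both WT pairs gave nearly the same value. Tnnt2 lies on chromosome 1 from 135836354 to 135852260.

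Myl2, the ventricular regulatory light chain, was the other negative one, and there the WT pairs parted. Its pair differences were -0.97, -1.22, -0.80 and -0.61 in Glut1 transgenic hearts, -0.79 in WT pair 1 and 0.06 in WT pair 2. The interaction was -0.54 (SE 0.24, 95% interval -1.05 to -0.03, adjusted p = 0.911), and -0.11 without WT pair 2. Myh6, the main myosin heavy chain of the mouse atrium and adult ventricle and the gene whose promoter drives the transgene and Cre, had an interaction of 0.21 (95% interval -0.13 to 0.55). Its pair differences of 0.31, 0.28, -0.06 and 0.24 overlapped those of WT hearts (-0.03 and -0.01). The interaction was 0.09 (95% interval -0.25 to 0.43) for Myh7, the fetal heavy chain, -0.11 (95% interval -0.49 to 0.26, 0.11 without WT pair 2) for Actc1, cardiac actin, and -0.24 (95% interval -0.70 to 0.22, 0.11 without WT pair 2) for Nppa, the atrial natriuretic peptide. The intervals of Myh6, Myh7, Actc1 and Nppa lay within 1 log2 unit of 0.

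Among other heart lists, fetal-type and stress genes had a median interaction of -0.01 over 11 genes, atrial genes -0.08 over 12, ventricular genes -0.18 over 10 and cardiomyocyte markers -0.10 over 10. These medians without WT pair 2 were 0.12, -0.05, -0.06 and 0.03. Tnni1, the fetal troponin I, had an interaction of -0.44 (95% interval -0.96 to 0.07), and -0.04 without WT pair 2. Genes of calcium handling and excitation had a median of 0.10 over 37 (-0.0029 without WT pair 2). At an unadjusted p under 0.05, 3 were positive and 0 negative, against 2.78% and 2.22% of all genes tested. Jph2, which ties the sarcoplasmic reticulum to the plasma membrane, had an interaction of 0.56 (95% interval 0.10 to 1.02), and 0.28 without WT pair 2. Cardiac transcription factors had a median of 0.19 over 24 genes, and 0.07 without WT pair 2. Esrrb, an orphan nuclear receptor of the estrogen-related family, was the 1 member with a positive interaction at an unadjusted p under 0.05. Esrrb stood at 17.3, 21.2, 32.7 and 36.3 CPM in the Tnnt2low and at 10.7, 14.2, 22.5 and 15.4 CPM in the Tnnt2high libraries of Glut1 transgenic hearts 1 to 4. In WT pairs 1 and 2 it stood at 17.7 and 12.1 CPM in Tnnt2low and at 28.7 and 17.2 CPM in Tnnt2high cells. Esrrb was thus higher in Tnnt2low cells of every Glut1 transgenic heart (0.68, 0.57, 0.53 and 1.22) and lower in both WT pairs (-0.69 and -0.50), and its interaction was 1.36 (SE 0.35, 95% interval 0.61 to 2.12, adjusted p = 0.911), and 1.46 without WT pair 2.

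Genes of glucose use, the process the transgene acts on, showed no interaction past the test. Slc2a1, the mouse GLUT1 gene, stood at 79.7, 92.2, 44.9 and 75.3 CPM in Tnnt2low and 73.8, 92.5, 33.4 and 53.8 CPM in Tnnt2high cells of Glut1 transgenic hearts. Its levels in WT pairs 1 and 2 were 27.7 and 15.8 CPM in Tnnt2low and 28.9 and 13.3 CPM in Tnnt2high cells. Every Glut1 transgenic library lay above every WT library, which is a difference between genotypes and not part of the interaction, and whether reads of the human transgene were counted there was not tested. The pair differences of Slc2a1 overlapped (0.11, -0.0045, 0.42 and 0.48 against -0.06 and 0.25), with an interaction of 0.16 (SE 0.26, 95% interval -0.41 to 0.73, adjusted p = 0.961), and 0.31 without WT pair 2. Slc2a3, the neuronal-type transporter GLUT3, had no read in the Tnnt2high library of WT pair 1 and 4.17 CPM in its partner. Its interaction was -1.66 (95% interval -3.47 to 0.15). Without WT pair 2 the value was -7.90, which depends on the prior count in the library without reads. Slc2a4, the insulin-responsive transporter, had an interaction of -0.18 (95% interval -0.67 to 0.30, -0.28 without WT pair 2), and Txnip, which glucose induces and which restrains glucose uptake, one of -0.17 (95% interval -0.61 to 0.28). The list medians of the interaction were -0.37 for 6 glucose transporters, 0.02 for 14 glucose-responsive genes, -0.10 for 21 genes of glycolysis, -0.08 for 20 of glycogen, 0.13 for 8 of the polyol and hexosamine pathways and -0.01 for 34 of the pentose phosphate pathway and nucleotide synthesis. Taken without WT pair 2 they were, in the same order, -0.84, 0.11, 0.10, 0.08, 0.01 and -0.05, so that glycolysis and glycogen changed sign. Fasn, the fatty acid synthase, had an interaction of 0.08 (95% interval -0.42 to 0.57, 0.14 without WT pair 2). It was -0.38 (95% interval -0.75 to -0.01) for Aldoa, the muscle aldolase, -0.52 (95% interval -1.03 to -0.02) for Stbd1, which tethers glycogen to membranes, and -0.63 (95% interval -1.15 to -0.11, -0.36 without WT pair 2) for Taldo1, transaldolase. Sord, which turns sorbitol into fructose, had an interaction of 0.82 (95% interval 0.26 to 1.38), with pair differences of 0.50, 0.55, 0.57 and -0.15 against -0.55 and -0.35. The share of 30-base words found in transcripts of other genes was 36.2% for Sord, 35.5% for Aldoa and 23.2% for Taldo1, so their reads are uncertain.

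Genes of the tricarboxylic acid cycle and pyruvate entry had a median interaction of -0.13 over 33 genes and those of fatty acid uptake and oxidation -0.21 over 36, and 0.07 and 0.02 without WT pair 2. Idh2, an enzyme of the cycle, had an interaction of -0.13 (95% interval -0.52 to 0.25, 0.07 without WT pair 2). Cpt1a, the liver-type carnitine palmitoyltransferase that admits fatty acids to mitochondria, had the opposite sign from its list only with WT pair 2 included. It stood at 188, 177, 167 and 185 CPM in Tnnt2low and 114, 98.8, 128 and 124 CPM in Tnnt2high cells of Glut1 transgenic hearts. The WT values of pairs 1 and 2 were 143 and 174 CPM in Tnnt2low and 134 and 174 CPM in Tnnt2high cells. Its interaction was 0.58 (SE 0.22, 95% interval 0.11 to 1.05, adjusted p = 0.911), and 0.53 without WT pair 2. The hypoxia list had a median of 0.12 over 14 genes (0.12 without WT pair 2), with Ldha, lactate dehydrogenase, at -0.19 (95% interval -0.64 to 0.25, 0.11 without WT pair 2) and Egln1, a prolyl hydroxylase that senses oxygen, at 0.20 (95% interval -0.22 to 0.62).

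Immediate early genes, which respond within minutes to growth signals or cell isolation, had a median interaction of 0.34 over 28 genes and 0.16 without WT pair 2. Fosb, a subunit of AP-1, was higher in Tnnt2low cells of every Glut1 transgenic heart (2.08, 1.18, 2.42 and 1.79) and as much in WT pair 1 (1.97), against 0.03 in WT pair 2. Its interaction was 0.87 (SE 0.48, 95% interval -0.16 to 1.90, adjusted p = 0.911), and -0.08 without WT pair 2. Atf3, a transcription factor of the stress response, had an interaction of 0.66 (95% interval 0.11 to 1.21, 0.40 without WT pair 2) and Dusp5, a phosphatase of nuclear ERK, one of 1.45 (95% interval 0.27 to 2.63). Ier3 had an interaction of -1.27 (95% interval -2.32 to -0.22, -0.80 without WT pair 2) and Egr3, at a mean of 1.39 CPM, one of -3.97 (95% interval -7.87 to -0.06). Heat shock genes had a median interaction of -0.01 over 20 (0.12 without WT pair 2), with Hspa1a, inducible Hsp70, at 1.29 (95% interval 0.34 to 2.24) and Hspb1, a small heat shock protein of muscle, at -0.48 (95% interval -0.91 to -0.05, -0.31 without WT pair 2). Nuclear-retained RNAs had a median interaction of -0.32 over 7 (-0.50 without WT pair 2), with Malat1 at -0.32 (95% interval -0.83 to 0.19, -0.50 without WT pair 2) and Neat1 at -0.28 (95% interval -1.32 to 0.76, -0.96 without WT pair 2). Hippo and YAP genes had a median interaction of 0.18 over 22 (0.03 without WT pair 2), with Cyr61, a secreted YAP target, at 0.66 (95% interval 0.04 to 1.28, 0.27 without WT pair 2), and growth factor receptors had one of 0.27 over 14, which was -0.08 without that pair.

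The genes with the smallest p included several whose populations differed in opposite directions. Among the 20 genes of smallest p with non-overlapping pairs, 10 in each direction, 11 had all 4 Glut1 transgenic pair differences of one sign and both WT ones of the other. Non-overlap was part of the choice of these genes. Plekhg3, an exchange factor for small GTPases, had pair differences of 1.04, 0.77, 1.10 and 0.61 against -1.14 and -0.44 and an interaction of 1.70 (95% interval 0.76 to 2.64). Atg2a, which carries lipids to the growing autophagosome, had pair differences of 0.33, 1.04, 0.84 and 0.65 against -0.40 and -0.45 and an interaction of 1.15 (95% interval 0.50 to 1.80). Myef2, a transcriptional repressor, had an interaction of 1.70 (95% interval 0.75 to 2.66), and Syk, a tyrosine kinase best known in blood cells, one of 1.07 (95% interval 0.44 to 1.71). Both kept their sign without WT pair 2, at 1.40 and 0.89. Of the 30-base words of Myef2, 26.1% occurred in transcripts of other genes.

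On the negative side, Myl12a, a regulatory light chain of non-muscle myosin II, stood at 134, 248, 144 and 218 CPM in Tnnt2low and 263, 363, 304 and 314 CPM in Tnnt2high cells of Glut1 transgenic hearts. WT pairs 1 and 2 had 205 and 171 CPM in Tnnt2low and 159 and 156 CPM in Tnnt2high cells. Its pair differences were -0.97, -0.55, -1.08 and -0.53 against 0.36 and 0.13. The interaction of Myl12a was -1.03 (SE 0.23, 95% interval -1.52 to -0.54, adjusted p = 0.816), and DESeq2 called it (adjusted p = 0.0486). In transcripts of other genes, 31.4% of its 30-base words occurred, so its reads are uncertain. Rpp21, a subunit of ribonuclease P, had pair differences of -0.93, -1.25, -1.22 and -1.30 against 1.15 and -0.02 and an interaction of -1.77 (95% interval -2.66 to -0.88). Scnm1, a protein of the minor spliceosome, had pair differences of -0.73, -0.94, -1.07 and -0.63 against 0.33 and 0.54 and an interaction of -1.30 (95% interval -1.97 to -0.62). Lgals1, which encodes galectin-1, a lectin that binds matrix and cell surface sugars, had pair differences of -1.12, -1.12, -1.22 and -1.0 against -0.35 and 0.08 and an interaction of -0.98 (95% interval -1.46 to -0.50), and -0.76 without WT pair 2. Mir6236 had an interaction of -1.27 (SE 0.26, 95% interval -1.82 to -0.72, adjusted p = 0.487), and DESeq2 called it (adjusted p = 0.00743). By the study's methods the libraries were prepared from mRNA, so this value is not a measure of a mature microRNA. Which RNA gave the reads counted at this gene was not tested.

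**Figure D5:**
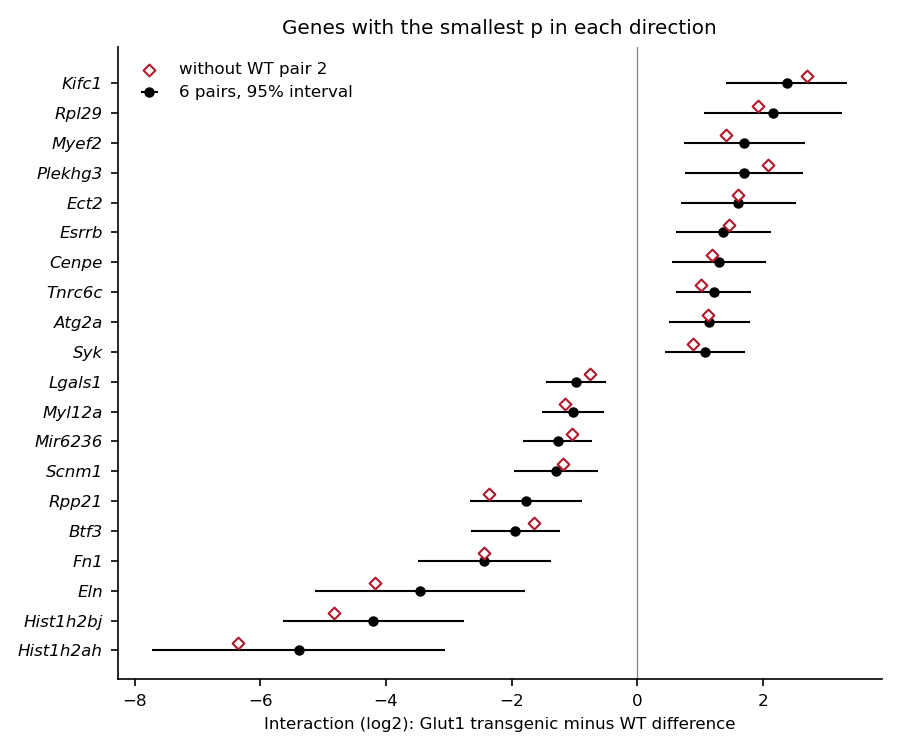
Interaction on the log2 scale for the 10 genes of smallest p in each direction with non-overlapping pairs, as filled points with 95% intervals from edgeR's fit of all 6 pairs, and as open diamonds for the fit without WT pair 2. The intervals are those of single genes without adjustment for the 11771 tested, and each diamond kept the sign of its point, as for Kifc1 (2.38 and 2.70).

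Some of the largest values belonged to genes whose sequence is shared with other genes, and these are uncertain. Btf3, the beta subunit of the nascent polypeptide-associated complex, stood at 61.1, 40.5, 20.7 and 36.0 CPM in Tnnt2low and 113, 97.4, 81.5 and 108 CPM in Tnnt2high cells of Glut1 transgenic hearts. In WT pairs 1 and 2 it stood at 27.5 and 29.3 CPM in Tnnt2low and at 23.4 and 16.7 CPM in Tnnt2high cells, so the Tnnt2high libraries of Glut1 transgenic hearts were apart from all others. Its interaction was -1.94 (SE 0.33, 95% interval -2.65 to -1.24, adjusted p = 0.317), and -1.65 without WT pair 2, and 68.7% of its 30-base words occurred in transcripts of other genes. Hist1h2bj reached 146 and 120.4 CPM in the Tnnt2low WT libraries and at most 24.6 CPM in any other library. Its interaction was -4.20 (SE 0.67, 95% interval -5.64 to -2.76, adjusted p = 0.317), with 67.7% of its words shared. Hist1h2ah had an interaction of -5.39 (95% interval -7.72 to -3.05), with 92.6% of its words shared, while that of Hist1h2ac was positive at 2.83 (95% interval 0.90 to 4.76). The 53 clustered histone genes had a median of 0.05 (0.40 without WT pair 2). At an unadjusted p under 0.05, 1 was positive and 3 were negative, against 2.78% and 2.22% of all genes tested.

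Ndufb4 and Ndufab1, subunits of complex I, went in opposite directions. Ndufb4 stood at 53.4, 16.7, 55.3 and 21.0 CPM in Tnnt2low and 149.6, 235, 28.5 and 29.4 CPM in Tnnt2high cells of Glut1 transgenic hearts. In WT pairs 1 and 2 it stood at 15.3 and 22.9 CPM in Tnnt2low and at 459 and 291 CPM in Tnnt2high cells. It had an interaction of 3.08 (95% interval 1.08 to 5.08) and 38.3% of its words were shared. Ndufab1 had pair differences of 3.38, 3.32, 4.41 and -0.48 against 7.02 and 3.50 and an interaction of -1.51 (95% interval -3.72 to 0.70, -4.08 without WT pair 2). The interactions of single ribosomal protein genes spread more widely, with Rpl28 at -8.58 (95% interval -13.55 to -3.62, -14.66 without WT pair 2), Rpl29 at 2.16 (95% interval 1.06 to 3.26), Rps6 at -3.14 (95% interval -5.0 to -1.28) and Rpl23a at 5.09 (95% interval 0.54 to 9.65). Rpl28 had no read in 4 of the 12 libraries, so its fitted value is no bound and depends on the prior count. Atp5l of the ATP synthase, at a mean of 1.76 CPM, had an interaction of -6.02 (95% interval -10.22 to -1.83). Between 49.1% and 81.9% of the words of these 4 ribosomal protein genes occurred in transcripts of other genes. Of the 89 genes named by rule, 33 had more than 10% of their words in other transcripts, among them Nppa (56.9%), Hspa1a (70.3%), Psma4 (47.4%) and Myh7 (39.3%).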

How the data were processed

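RNA was sequenced from 12 sorted cardiomyocyte samples in 6 pairs. The authors deposited whole-number counts of reads per gene, 1 table per library, as HTSeq writes them, and the processing notes of the submitters name FastQC, HISAT2, HTSeq, DESeq2 and the mm10 build. Their versions and the strand setting are not stated in those notes or the methods. Summary records that name no gene (outside exons, ambiguous, not unique) held 63.6% to 83.8% of all records per library and were left out.

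From these deposited counts, edgeR 4.0.16 (R 4.3.3) filtered genes by filterByExpr over the 4 groups, scaled by TMM and fitted 1 quasi-likelihood model to all 12 libraries with the pair as a block, testing the population difference in each genotype and their difference. P-values were adjusted by the Benjamini-Hochberg method over the 12252 genes tested, with a threshold of 0.05, and counts are over autosomal genes, placed by symbol with GENCODE vM21 on GRCm38 (386 symbols did not match). Pair differences are of log2 CPM with a prior count of 2. Pairs come from the heart numbers in the labels, and deviations from the group means correlated within pairs at 0.25, 0.18, 0.13 and 0.18 in Glut1 transgenic and 0.21 in WT hearts (with 2 pairs both have the same value). The pair is a block because the question is a difference of differences within pairs, which the study's methods do not state as a test. DESeq2 1.42.0, limma 3.58.1 and other settings were alternatives. Depth limits low genes most, and intervals cover the spread between these samples.

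Named genes were a set of anchors, the 10 of smallest p in each direction whose pairs did not overlap (mean level 10 CPM or above), and from each list at most 2 members a direction at an unadjusted p under 0.05, or else the 2 of highest mean level. Some genes that the rule named are not reported here. Genes, lists and settings were chosen with earlier results of these data known. Shared words are 30-base stretches of a gene's longest transcript found in transcripts of other genes.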

Additional observations from a re-analysis of the deposited data

Results flagged for a closer look

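The CDK inhibitors and Rb family stood out because their median moved in opposite directions in the genotypes. The median over 11 genes was 0.29, 0.23, 0.16 and 0.14 log2 units in Glut1 transgenic pairs 1 to 4 and -0.10 and -0.12 in WT pairs 1 and 2, and the median interaction was 0.28. This difference was not tested. The WT medians lay close to 0, and without WT pair 2 the median interaction was 0.05.

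Hist1h2ah stood out because 1 of its 4 Glut1 transgenic pairs lay far from the others. The pair differences were -0.65, -4.24, -0.37 and -0.85 log2 units, with pair 2 at -4.24, and 92.6% of its 30-base words occurred in transcripts of other genes. It was the 1 such value among 79 sets of 4 pairs screened, where chance gives about 1 in 20.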

How the results depend on the processing

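Genes passing the interaction test numbered 2 higher and 5 lower with DESeq2, 29 higher and 48 lower without the filter on low counts, 1 higher and 1 lower in the pairs without Y-linked reads (Stmn1 and Fn1), and 0 to 1 higher and 0 to 3 lower when 1 pair was left out. Leaving out Glut1 transgenic pair 1 gave 1 higher (Rpl29) and 3 lower (Btf3, Hist1h2bj and Rps7), and leaving out pair 4 gave Fn1 lower. Stmn1 and Rps7 were named after their values were seen. The count was 0 in both directions with other size factors, limma, a mean of at least 10 CPM, the length and GC offset, robust estimation, adjustment over autosomal genes and without genes that share sequence. Without the filter the prior degrees of freedom were infinite. Without the replicate block, which ignores the pairing, the interaction count was also 0 in both directions, that in Glut1 transgenic hearts was 1006 higher and 984 lower, and that in WT hearts 0 higher and 0 lower. Glut1 transgenic calls were 272 higher and 358 lower with the length and GC offset and 6 higher and 33 lower in the pairs without Y-linked reads. They ranged from 373 to 1221 higher and 435 to 1163 lower with 1 pair left out, lowest without Glut1 transgenic pair 1 (373 higher and 435 lower). WT calls were 2 higher and 2 lower with DESeq2, 20 higher and 49 lower without the filter, 2 higher and 5 lower without Y-linked reads and 0 in both directions at a mean of at least 10 CPM, with the length and GC offset and without genes that share sequence. None was higher with limma or robust estimation, and with 1 pair left out the range was 0 to 2 higher and 0 to 6 lower.

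With 1 pair left out, median interactions ranged over 0.64 to 0.92 for kinetochore and spindle, 0.63 to 1.15 for cytokinesis, -2.05 to -0.97 for fibroblast and matrix, -1.92 to -0.67 for endothelial markers, -0.084 to 0.068 for sarcomere, -0.82 to 0.053 for complex I, -0.91 to -0.074 for complexes II to V and -0.97 to 0.036 for the cytosolic ribosome. As mean pair difference against WT pair 1 alone, chosen after seeing the data, the last 3 were 0.049, -0.029 and 0.028, and the shares of non-overlapping genes against WT pair 1, also chosen then, were 19.6% and 18.1%. Of 39 lists, 19 kept the sign of their median under every alternative and 20 did not. With 2 WT pairs, 1 of them with nearly alike libraries, both perhaps of the same heart, the precision is limited, and 34.6% of genes had an interval within 1 log2 unit of 0. The causes of the other changes with settings were not tested.

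The interactions of the 89 genes named by rule were refitted 1493 times in all, and 20 of these values, of 11 genes, had the other sign, none of them past the threshold. With 1 pair left out the interaction ranged over -0.42 to 0.068 for Acta2, -0.33 to 0.11 for Actc1, -0.50 to 1.83 for Ccnb1, -0.060 to 0.19 for Fasn, -0.085 to 1.87 for Fosb, -0.33 to 0.072 for Idh2, -0.49 to 0.11 for Ldha, -1.06 to 0.46 for Mrc1, -0.96 to 0.39 for Neat1 and -0.58 to 0.11 for Nppa. With the length and GC offset it was -0.078 for Myh7, 0.090 for Actc1, 0.078 for Nppa and -0.0065 for Fasn, in the pairs without Y-linked reads -0.13 for Ccnb1, 0.021 for Neat1 and 0.82 for Mrc1, and with limma 0.0077 for Mrc1. Another 34 values passed the threshold, in 23 genes without the filter and 6 with DESeq2, the others in the genes given above with pairs left out.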

Other observations

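The Tnnt2high library of WT pair 2 differed in its counts from the Tnnt2low libraries of Glut1 transgenic hearts by 4.92 to 14.4 times counting noise, and from their Tnnt2high libraries by 7.23 to 13.2 times, with overlap.

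Genes of smaller cell type lists had no interaction at an unadjusted p under 0.05. Acta2, smooth muscle actin, had pair differences of -0.61, -0.60, -0.22 and -0.15 log2 units in Glut1 transgenic and -0.46 and 0.03 in WT pairs. Abcc9, a channel subunit of pericytes and heart, had 0.66, 0.60, 0.20 and 0.43 log2 units in Glut1 transgenic and 0.18 and 0.05 in WT pairs. Mrc1, a receptor of tissue macrophages, had -0.94, -0.34, 2.35 and -2.03 log2 units in Glut1 transgenic and -0.60 and 0.11 in WT pairs. Aldh1a2, which makes retinoic acid in the epicardium, had -3.13, -1.21, -4.45 and -1.32 log2 units in Glut1 transgenic and -1.99 and 0.12 in WT pairs. Pam, an enzyme of atrial granules, had 0.51, 0.55, 0.16 and 0.30 log2 units in Glut1 transgenic and 0.24 and 0.01 in WT pairs. The pairs of both genotypes overlapped for all of these except Abcc9.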
